A study of Ovis aries with 40 samples.

Results

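The comparison described here is that of distal lung from wild-type (WT) sheep at term with distal lung from WT sheep at day 120 of gestation. Its members are the 4 libraries whose labels give WT, distal lung and 1 of these ages, 2 at day 120 and 2 at term, of 40 libraries in the series. The animals were American Romney sheep, and the WT fetuses and lambs came from ewes mated after their cycles were synchronised with cloprostenol, a prostaglandin analogue. The term libraries are labelled day 147 (birth) and came from lambs born naturally, so that day 120 tissue was fetal and term tissue was taken after birth. The interval between birth and sampling is not given in the labels. The series also holds WT libraries of days 65, 80 and 100, proximal lung of the same animals, and both regions of CF animals. The CF animals carried no working *CFTR*, the chloride channel gene mutated in cystic fibrosis, and were made by somatic cell nuclear transfer. RNA was taken from pieces of whole tissue. It was bulk RNA, so a lower level of a marker gene could come from fewer cells of that type or from less RNA per cell, and these cannot be told apart here.

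Before birth the lung is filled with liquid that its epithelium secretes, and gas exchange runs through the placenta. At birth the liquid is absorbed through epithelial sodium channels, surfactant from alveolar type 2 cells lowers surface tension, and thin alveolar type 1 cells come to lie against a dense capillary bed. In sheep much of the alveolar architecture is laid down before birth, and a rise of fetal cortisol precedes labour.

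The day 120 libraries held 24670355 and 40601998 counted reads and the term libraries held 115937437 and 126749480. WT distal libraries of days 65 to 100 held 29327274 to 43700012, so that depth was raised at term alone. Depth and time point cannot be told apart in the deposited counts. Whether the term libraries were sequenced apart from the earlier ones was not tested. After all libraries were thinned to equal depth, 4658 genes were called, against 4715 without thinning. Mitochondrial genes held 2.06% to 2.38% of reads in the 4 libraries. Markers of epithelium, endothelium, stroma and blood cells were all present in tissue that the labels call epithelial. Levels below are normalised read counts (CPM, scaled by TMM over the 10 WT distal libraries), given for replicates 1 and 2 in that order. A log2 fold change is term minus day 120, from edgeR's quasi-likelihood fit of all 10 WT distal libraries, and is followed by its standard error. A gene is said to have risen or fallen where its adjusted p (Benjamini-Hochberg, over 18277 genes) did not exceed 0.05. DEGs were called more strictly, at an adjusted p no greater than 0.001 and a log2 fold change of 0.58 or beyond. The labels do not say whether the 2 animals of an age shared a litter, and p-values measure only the spread between these libraries.

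Between day 120 and term 2463 genes rose (13.5% of those tested) and 2252 fell (12.3%), and the median log2 fold change of all genes was 0.04. DEGs numbered 210 (1.15%). Both WT distal day 100 libraries carry 1 animal label, and the spread behind every adjusted p includes their difference. With these libraries summed to 1, an alternative chosen after seeing the data, 24 genes were DEGs and 3364 were called over 18975 genes tested. All 24 were among the 210, and the 210 DEGs then had adjusted p of 0.00511 or less. Of the DEGs described here *SCGB1A1*, *CA4*, *PLAUR*, *PDK4*, *SDS*, *CPT1A*, *PTPRE*, *INSIG1*, *FGF10*, *COL8A2*, *SFRP2* and *CDR1* were among the 24. Of the 210, 114 (0.624%) were higher and 96 (0.525%) were lower at term. At term 113 of the 114 higher DEGs lay above all 8 earlier WT distal libraries, and 95 of the 96 lower DEGs lay below all 8. Over all genes 21.3% lay above and 19% lay below all 8. All 210 DEGs lay outside the 2 day 120 libraries, as their selection favours, so these shares are not a like comparison. Fewer or more genes were called when a library was left out, and counts of list members in those fits stand against other shares of all genes. Without day 120 replicate 1 4.38% of genes rose and 4.26% fell, and without day 120 replicate 2 5.87% rose and 6.31% fell. The shares were 16.8% and 18.9% without term replicate 1, and 8.06% and 8.64% without term replicate 2. With the day 100 libraries summed they were 8.99% and 8.74%. The lists of antioxidant, complement, glucocorticoid, macrophage and alveolar type 2 genes had the largest shares of risen members among the 41 lists, and those of erythroid, collagen, pericyte and oncofetal genes had the largest shares of fallen members.

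**Figure D1:**
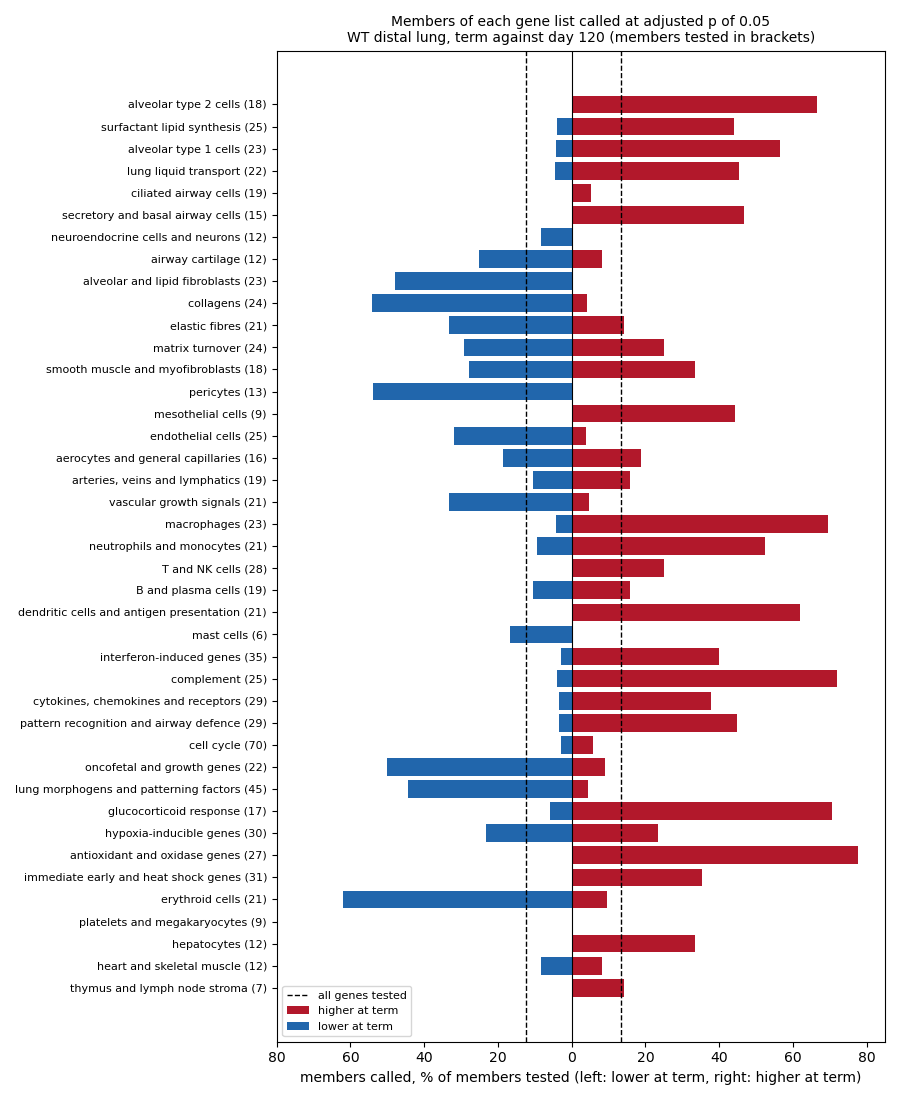
Share of the tested members of each of 41 gene lists that rose (red, to the right) or fell (blue, to the left) between day 120 and term in WT distal lung, in percent, with the number of members tested in brackets. Dashed lines mark the 13.5% of all genes that rose and the 12.3% that fell. Antioxidant genes reach 21 of 27 members to the right and erythroid genes 13 of 21 to the left.

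Of 18 genes of alveolar type 2 cells tested, 12 rose and 11 lay above all 8 earlier libraries. Their median log2 fold change was 0.98 (all genes 0.04). The list includes the genes of surfactant proteins A and D, collectins that bind microbes, and of B and C, small proteins that spread surfactant lipid. *SFTPA1* (Oar_v4.0 chromosome 25, 35170066 to 35174178, minus strand) was at 221 and 184 CPM at day 120 and 3437 and 4382 CPM at term, and rose with a log2 fold change of 4.27 ± 0.54, adjusted p = 0.00157. In the fetal libraries of days 65 and 80 it had been between 0 and 1.13 CPM. *SFTPC* (chromosome 2, 43230598 to 43233947, minus strand) was at 1637 and 2139.7 CPM at day 120 and 7793 and 14651 CPM at term. This made a log2 fold change of 2.57 ± 0.38, adjusted p = 0.00263. *SFTPB* stood at 521 and 563 CPM at day 120 and 3079 and 4149.7 CPM at term (log2 fold change 2.74 ± 0.38, adjusted p = 0.00225). For each of these genes both term libraries lay above every earlier library. *SFTPD* was at 93.97 and 149 CPM at day 120 and 355 and 651 CPM at term (log2 fold change 2.05 ± 0.39, adjusted p = 0.00676).

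Genes that process and package surfactant were also measured. *NAPSA* (chromosome 14, 55431050 to 55440129, minus strand), an aspartic protease that cleaves pro-surfactant protein B, was at 8.85 and 4.52 CPM at day 120 and 110.0 and 220.2 CPM at term and was a DEG (log2 fold change 4.64 ± 0.41, adjusted p = 0.000402). *ABCA3*, the lipid transporter of lamellar bodies, was at 12.02 and 16.8 CPM at day 120 and 64.2 and 137 CPM at term (log2 fold change 2.80 ± 0.37, adjusted p = 0.00185). *LAMP3*, a lamellar body membrane protein, was at 244 and 319 CPM at day 120 and 536 and 588 CPM at term (log2 fold change 1.00 ± 0.17, adjusted p = 0.00487), a level within the range of earlier libraries, since it had been 519 to 693 CPM at days 80 and 100. *NKX2-1*, the transcription factor that specifies lung epithelium, had a log2 fold change of 0.58 ± 0.27, adjusted p = 0.14 and did not pass the test. Of 25 genes of lipid synthesis for surfactant, 11 rose and 1 fell, with a median of 0.56. *INSIG1*, which restrains sterol regulatory element activation, was a DEG at 38.3 and 38.8 CPM at day 120 and 153 and 196 CPM at term (log2 fold change 2.17 ± 0.15, adjusted p = 0.000148). *CHKA*, choline kinase at the start of phosphatidylcholine synthesis, was also a DEG (log2 fold change 1.37 ± 0.14, adjusted p = 0.000652). *LPCAT1*, which remodels lysophosphatidylcholine into surfactant lipid, was at 32.9 and 37.6 CPM at day 120 and 99.7 and 47.00 CPM at term (log2 fold change 1.06 ± 0.29, adjusted p = 0.0287), with term replicate 2 close to the day 120 libraries. Its call was lost without term replicate 1 (adjusted p = 0.0592), day 120 replicate 1 (0.157) or day 120 replicate 2 (0.0901), with the length trend removed (0.0627), with the day 100 libraries summed (0.0565) and with the 4 libraries alone (0.113). Without day 120 replicate 1 the calls of *SFTPD* (adjusted p = 0.0628) and *LAMP3* (0.0525) were lost. The risen members were then 7 type 2 and 4 lipid genes, where 4.38% of all genes rose. Without day 120 replicate 2 they were 11 and 6.

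Of 23 alveolar type 1 markers tested, 13 rose and 1 fell, and 16 lay above all 8 earlier libraries. Their median was 1.11. *AGER*, a receptor of the basal type 1 cell membrane, was at 575 and 380.5 CPM at day 120 and 2039.5 and 2706 CPM at term. It thus had a log2 fold change of 2.31 ± 0.34, adjusted p = 0.00261. The water channel *AQP5* was at 73.99 and 59.6 CPM at day 120 and 222 and 305 CPM at term (log2 fold change 1.98 ± 0.24, adjusted p = 0.00137). Both rose in steps from day 65 and were highest at term. *COL4A3*, a chain of the basement membrane under type 1 cells, was at 141 and 99.6 CPM at day 120 and 707 and 372 CPM at term (log2 fold change 2.17 ± 0.38, adjusted p = 0.00537). *HOPX*, a cofactor of the type 1 programme, was at 153 and 159.7 CPM at day 120 and 460.0 and 433 CPM at term (log2 fold change 1.51 ± 0.29, adjusted p = 0.00734), and its call was lost without day 120 replicate 1 (adjusted p = 0.0573). Neither *CAV1*, the caveolar coat protein (log2 fold change -0.43 ± 0.29, adjusted p = 0.313), nor *CLIC5*, a chloride intracellular channel protein (log2 fold change 1.02 ± 0.48, adjusted p = 0.147), passed the test, and for *CLIC5* the term libraries stood apart at 417 and 175 CPM.

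The 3 subunits of the epithelial sodium channel rose. *SCNN1B* (chromosome 24, 21058908 to 21085025, plus strand), the beta subunit, was at 11.98 and 23.4 CPM at day 120 and 279 and 351 CPM at term and was a DEG (log2 fold change 4.15 ± 0.34, adjusted p = 0.000271). *SCNN1G*, the gamma subunit, was at 1.54 and 2.704 CPM at day 120 and 54.3 and 85.9 CPM at term (log2 fold change 5.02 ± 0.73, adjusted p = 0.00257). *SCNN1A*, the alpha subunit, was at 13.97 and 11.5 CPM at day 120 and 69.2 and 72.2 CPM at term. The fit gave a log2 fold change of 2.48 ± 0.30, adjusted p = 0.00135. All 3 lay above all 8 earlier libraries, in which none exceeded 23.4 CPM. Of 22 genes of lung liquid transport 10 rose, among them *ANO1*, a calcium-activated chloride channel, at 110.3 and 121 CPM at day 120 and 351 and 330.4 CPM at term (log2 fold change 1.56 ± 0.18, adjusted p = 0.00116). The single member that fell was *SLC12A2*, the basolateral cotransporter that loads chloride for secretion (log2 fold change -1.18, adjusted p = 0.00622). *CFTR*, the apical chloride channel, was at 10.8 and 13.1 CPM at day 120 and 10.2 and 12.6 CPM at term (log2 fold change -0.07 ± 0.18, adjusted p = 0.801), and did not pass the test. It had been at 26.3 to 43.2 CPM from day 65 to day 100. *AQP4*, a water channel, had day 120 levels of 8.20 and 40.9 CPM and did not pass the test (log2 fold change 1.66 ± 1.19, adjusted p = 0.335).

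**Figure D2:**
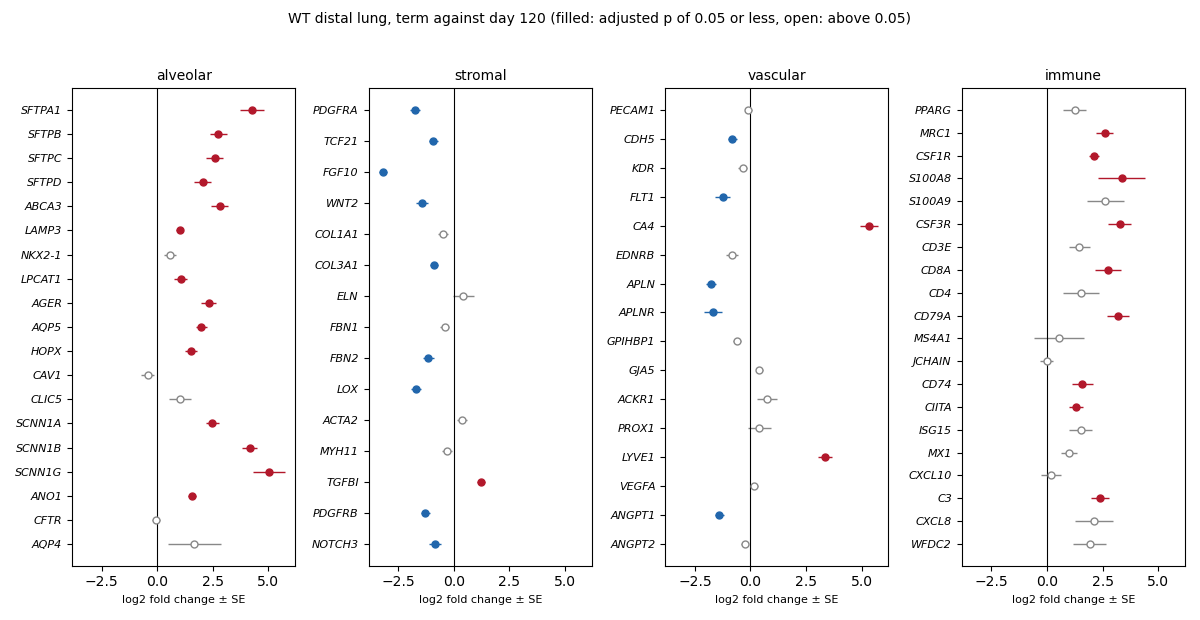
Log2 fold change (term minus day 120) with its standard error for alveolar, stromal, vascular and immune genes given whatever their result, filled where the adjusted p was 0.05 or less. Sodium channel and surfactant genes lie far to the right (*SCNN1G* 5.02, *SFTPA1* 4.27), *FGF10* (-3.19) far to the left, and *PECAM1*, *CFTR* and *JCHAIN* beside zero. *MARCO* and *CD5L*, at or near 0 counts at day 120, are not drawn.

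Airway marker levels also differed between the libraries. Summed over 15 secretory and basal airway genes the libraries held 178 and 500.2 CPM at day 120 and 1432 and 7441 CPM at term, and over 19 genes of ciliated cells they held 218 and 508 CPM and then 611 and 1176 CPM. Replicate 2 was the higher library at each age. The part of airway markers in the airway and defence results was not tested. Of the secretory and basal genes 7 rose and of the ciliated genes 1 rose. Of the secretory and basal genes 8 lay above all earlier libraries. *SCGB1A1*, the club cell secretoglobin, was at 0.487 and 0.295 CPM at day 120 and 381 and 1391 CPM at term, a fold of 2415 on summed counts, and was a DEG (adjusted p = 0.000361). *BPIFB1*, an airway secretory protein, was at 0 and 5.11 CPM at day 120 and 46.7 and 609 CPM at term, far apart between the term libraries. Its call was lost without term replicate 2 (adjusted p = 0.195), without day 120 replicate 1 (0.113), with the 4 libraries alone (0.067) and in DESeq2 (0.0964). Without term replicate 2 the risen secretory and basal members were 4, without day 120 replicate 1 they were 2. Airway cartilage was low in all 4 libraries, with summed levels of 163 and 204 CPM at day 120 and 189 and 131 CPM at term. *COL2A1*, the main cartilage collagen, was at 1.06 and 2.16 CPM at day 120 and 1.37 and 0.897 CPM at term and did not pass the test.

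**Figure D3:**
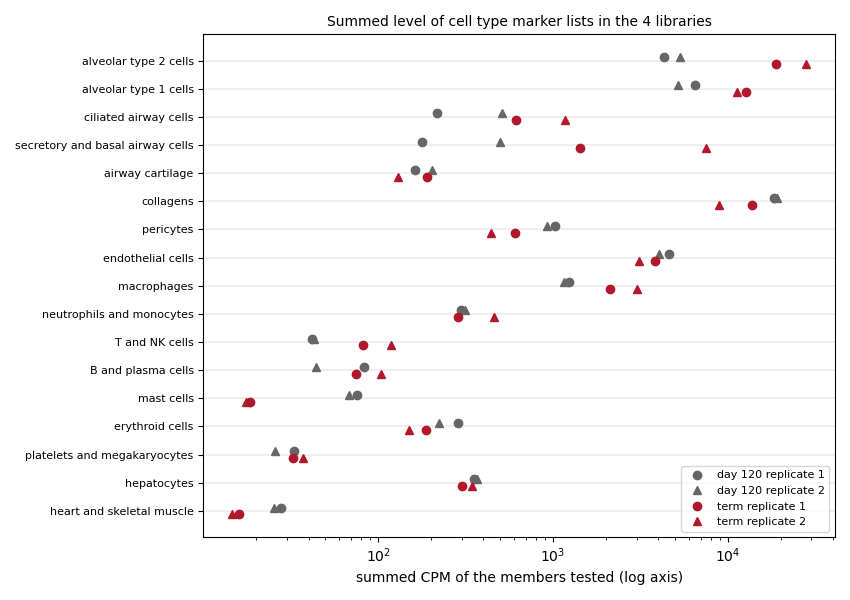
Summed CPM (log axis) of the tested members of 17 lists of cell type markers in the 2 day 120 (grey) and 2 term (red) libraries, with replicate 1 as circles and replicate 2 as triangles. Type 2 markers move from 4319 and 5326 to 18820 and 28040 CPM, and secretory airway markers are spread between the term libraries (1432 and 7441 CPM). The sums of mast cell and erythroid markers are lower at term, *KIT* being the single mast cell gene called.

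Of 23 markers of alveolar and lipid fibroblasts 11 fell, with a median log2 fold change of -0.86. *FGF10* (chromosome 16, 30460032 to 30555613, plus strand), the mesenchymal growth factor that drives bud outgrowth, was a DEG at 84.5 and 109 CPM at day 120 and 12.3 and 8.84 CPM at term (log2 fold change -3.19 ± 0.19, adjusted p = 7.21e-05). It had climbed from 40.7 CPM at day 65 to its day 120 level, and the term libraries lay below all 8 earlier ones. *MEOX2*, a mesenchymal homeobox gene, was a DEG at 163 and 180.2 CPM at day 120 and 39.8 and 28.9 CPM at term (log2 fold change -2.32 ± 0.18, adjusted p = 0.000233). *ROBO2*, a receptor for Slit guidance cues, was likewise a DEG at 279.7 and 274 CPM at day 120 and 83.2 and 49.1 CPM at term (log2 fold change -2.06 ± 0.22, adjusted p = 0.000675). *PDGFRA*, the receptor of alveolar fibroblast and myofibroblast progenitors, was at 243 and 203 CPM at day 120 and 81.2 and 51.9 CPM at term (log2 fold change -1.74 ± 0.23, adjusted p = 0.00176). *WNT2* (log2 fold change -1.44 ± 0.28, adjusted p = 0.00737) and *TCF21*, a lipofibroblast transcription factor (log2 fold change -0.93 ± 0.20, adjusted p = 0.0111), fell by less; the former call was lost without day 120 replicate 1 (adjusted p = 0.0556) and the latter without day 120 replicate 2 (0.078).

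Of 24 collagen genes outside cartilage 13 fell and 1 rose, with a median of -0.95, and the summed level went from 18250 and 19020 CPM at day 120 to 13740 and 8923 CPM at term. *COL15A1*, a multiplexin at the edge of basement membranes, was a DEG at 609 and 636 CPM at day 120 and 142 and 124 CPM at term. This made a log2 fold change of -2.22 ± 0.18, adjusted p = 0.00026. *COL8A2*, a short-chain network collagen, was a DEG at 53.7 and 51.8 CPM at day 120 and 3.08 and 3.69 CPM at term (log2 fold change -3.96 ± 0.20, adjusted p = 4.21e-05). The fibrillar collagen *COL3A1* was at 4955 and 5478 CPM at day 120 and 3173 and 2419 CPM at term (log2 fold change -0.90 ± 0.18, adjusted p = 0.00812), and *COL1A1* at 1450.1 and 1634 CPM at day 120 and 1365 and 845 CPM at term did not pass the test (log2 fold change -0.48 ± 0.22, adjusted p = 0.143). The call of *COL3A1* was lost without day 120 replicate 2 (adjusted p = 0.0563) and with the 4 libraries alone (0.0946), and the fallen collagens were 8 without either day 120 library.

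The elastic fibre genes split, with 7 of 21 lower and 3 higher. *ELN*, elastin, was at 1624 and 1710.0 CPM at day 120 and 1664 and 2831 CPM at term and did not pass the test (log2 fold change 0.43 ± 0.45, adjusted p = 0.511). *FBN2*, the fetal fibrillin, was at 289 and 222 CPM at day 120 and 147 and 81.7 CPM at term (log2 fold change -1.16 ± 0.25, adjusted p = 0.0113), and *FBN1* at 282 and 249 CPM at day 120 and 233 and 165 CPM at term did not pass the test. The call of *FBN2* was lost without day 120 replicate 1 (adjusted p = 0.0842) and with the 4 libraries alone (0.0723). Lysyl oxidases, which crosslink collagen and elastin, went both ways. *LOX* was at 53.6 and 50.2 CPM at day 120 and 20.3 and 11.97 CPM at term (log2 fold change -1.69 ± 0.23, adjusted p = 0.00192), whereas *LOXL4* was a DEG at 1.62 and 1.08 CPM at day 120 and 41.3 and 36.4 CPM at term (log2 fold change 4.86 ± 0.46, adjusted p = 0.00049). *EMILIN2*, an elastin interface protein, was a DEG at 3.41 and 3.195 CPM at day 120 and 34.4 and 24.1 CPM at term (log2 fold change 3.15 ± 0.32, adjusted p = 0.000591). Among 24 genes of matrix turnover 6 rose and 7 fell, the median being 0.03. *PLAUR*, the urokinase receptor, was the clearest at 1.502 and 1.43 CPM at day 120 and 69.7 and 61.2 CPM at term and was a DEG (log2 fold change 5.48 ± 0.31, adjusted p = 5.40e-05). *TIMP4*, a metalloproteinase inhibitor, was at 2.03 and 3.27 CPM at day 120 and 16.4 and 45.5 CPM at term. It thus had a log2 fold change of 3.53 ± 0.48, adjusted p = 0.00197. The fallen elastic fibre genes were 3 without day 120 replicate 1 and 4 without replicate 2, and the risen turnover genes were 4 and 3. With the day 100 libraries summed 4 turnover genes fell.

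Contractile cells showed no common direction. Of 18 genes of smooth muscle and myofibroblasts 6 rose and 5 fell. *ACTA2*, smooth muscle actin, was at 368 and 258 CPM at day 120 and 395 and 402 CPM at term (log2 fold change 0.35 ± 0.22, adjusted p = 0.266) and *MYH11*, smooth muscle myosin, at 149 and 127 CPM at day 120 and 132 and 90.4 CPM at term (log2 fold change -0.31 ± 0.21, adjusted p = 0.3), and neither passed the test. *DES*, desmin, was a DEG at 60.1 and 48.8 CPM at day 120 and 159 and 136 CPM at term (log2 fold change 1.44 ± 0.15, adjusted p = 0.000734). *PLN*, phospholamban, fell from 37.5 and 32.4 CPM to 15.5 and 10.7 CPM (log2 fold change -1.42 ± 0.21, adjusted p = 0.00257). Of 13 pericyte genes 7 fell, with a median of -0.75. *RGS5*, a regulator of G protein signalling in pericytes, was at 112 and 67.7 CPM at day 120 and 8.49 and 1.79 CPM at term (log2 fold change -4.12 ± 0.71, adjusted p = 0.00487). *PDGFRB*, the receptor that recruits pericytes, was at 244 and 229 CPM at day 120 and 121 and 72.5 CPM at term (log2 fold change -1.29 ± 0.21, adjusted p = 0.0038). *ABCC9*, a subunit of potassium channels in mural cells, was at 118 and 133 CPM at day 120 and 54.6 and 35.4 CPM at term. The fit gave a log2 fold change of -1.48 ± 0.23, adjusted p = 0.00316. The fallen pericyte genes were 4 with the day 100 libraries summed, 4 without term replicate 2, 3 without day 120 replicate 1 and 4 without day 120 replicate 2. Of 9 mesothelial genes 4 rose, among them *KRT19*, an epithelial keratin also made in airways, at 124 and 181 CPM at day 120 and 356 and 559.7 CPM at term (log2 fold change 1.59 ± 0.27, adjusted p = 0.00447), and *GPM6A* at 83.9 and 62.9 CPM at day 120 and 175 and 149 CPM at term (log2 fold change 1.14 ± 0.18, adjusted p = 0.00363). The summed mesothelial level was 213 and 247 CPM at day 120 and 540 and 731 CPM at term. In each of the 4 libraries *KRT19* held the larger part of this sum and *GPM6A* most of the rest. The sum therefore need not follow mesothelium.

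Of 25 general endothelial markers tested, 8 fell and 1 rose, with a median of -0.16. *PECAM1*, the junctional marker of all endothelium, was at 612 and 497 CPM at day 120 and 567 and 467 CPM at term (log2 fold change -0.10 ± 0.15, adjusted p = 0.648), and *KDR*, the main receptor for VEGF, at 389.9 and 269.6 CPM at day 120 and 301 and 216 CPM at term (log2 fold change -0.35 ± 0.20, adjusted p = 0.231), and neither passed the test. *EMCN*, a sialomucin of capillaries and veins, fell from 332 and 261 CPM to 123 and 116 CPM (log2 fold change -1.31 ± 0.15, adjusted p = 0.00119). *PLVAP*, which forms the diaphragms of fenestrated and fetal endothelium, fell from 144 and 132 CPM to 36.3 and 56.9 CPM (log2 fold change -1.56 ± 0.24, adjusted p = 0.00314). The junctional cadherin *CDH5* also fell (log2 fold change -0.82 ± 0.21, adjusted p = 0.0207), but its call was lost without day 120 replicate 1 (adjusted p = 0.124) or replicate 2 (0.06) and with the 4 libraries alone (0.114). The fallen endothelial genes were 4 without term replicate 2, 2 without day 120 replicate 1 and 5 without day 120 replicate 2.

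Of 16 capillary genes 3 rose and 3 fell, shares not far from the 13.5% and 12.3% of all genes. *CA4* (chromosome 11, 12352618 to 12360060, minus strand), a membrane carbonic anhydrase of pulmonary capillaries, was a DEG at 1.75 and 1.28 CPM at day 120 and 52.9 and 67.6 CPM at term (log2 fold change 5.33 ± 0.40, adjusted p = 0.000226). It had not exceeded 0.486 CPM from day 65 to day 100. *TMEM100*, a target of ALK1 signalling in endothelium, was a DEG at 56.6 and 37.9 CPM at day 120 and 218 and 179 CPM at term (log2 fold change 2.07 ± 0.20, adjusted p = 0.000491). *PRX*, periaxin, was at 23.1 and 13.3 CPM at day 120 and 105 and 112 CPM at term (log2 fold change 2.58 ± 0.34, adjusted p = 0.00178). In the other direction *APLN*, the apelin ligand, was at 105 and 65.6 CPM at day 120 and 28.4 and 21.7 CPM at term (log2 fold change -1.77 ± 0.23, adjusted p = 0.00161), and its receptor gene *APLNR* at 59.00 and 60.7 CPM at day 120 and 28.4 and 8.96 CPM at term (log2 fold change -1.68 ± 0.42, adjusted p = 0.0201). The call of *APLNR* was lost without day 120 replicate 1 (adjusted p = 0.0797) or replicate 2 (0.0717) and with the 4 libraries alone (0.0877). *EDNRB*, the endothelin B receptor (log2 fold change -0.83 ± 0.28, adjusted p = 0.0556), and *GPIHBP1*, the capillary anchor of lipoprotein lipase (log2 fold change -0.60 ± 0.19, adjusted p = 0.0505), did not pass the test. Among 19 arterial, venous and lymphatic genes 3 rose and 2 fell, again not far from the shares of all genes. Of the risen genes *CCL21*, a lymphatic chemokine, lost its call without any 1 of the 4 libraries, its log2 fold change then being 1.03 to 1.70. That call was also lost with the day 100 libraries summed and with the length trend removed (adjusted p = 0.0878). *HEY1*, a Notch target of arteries, lost its call without term replicate 1 or either day 120 library. With a library left out its log2 fold change was 1.15 to 1.48. The call of *HEY1* was also lost with the 4 libraries alone (adjusted p = 0.062). *LYVE1*, a hyaluronan receptor of lymphatic endothelium and of some macrophages, was a DEG at 8.69 and 12.95 CPM at day 120 and 102 and 123 CPM at term (log2 fold change 3.36 ± 0.31, adjusted p = 0.000418), after 31.2 to 53.3 CPM at days 65 and 80 and 9.55 and 7.45 CPM at day 100. *PROX1*, the lymphatic master regulator, was at 2.92 and 5.899 CPM at day 120 and 7.499 and 4.23 CPM at term and did not pass the test (log2 fold change 0.40 ± 0.52, adjusted p = 0.595).

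Of 21 genes of vascular growth signals 7 fell and 1 rose. *VEGFA* was at 153 and 139 CPM at day 120 and 196 and 128 CPM at term and did not pass the test (log2 fold change 0.15 ± 0.19, adjusted p = 0.59). *ANGPT1*, the ligand that stabilises vessels through TIE2, was at 74.96 and 69.5 CPM at day 120 and 32.8 and 21.7 CPM at term (log2 fold change -1.41 ± 0.20, adjusted p = 0.00249), while *ANGPT2*, its antagonist, did not pass the test (log2 fold change -0.26 ± 0.17, adjusted p = 0.284). *HGF*, hepatocyte growth factor, was a DEG at 37.4 and 32.2 CPM at day 120 and 7.13 and 4.25 CPM at term (log2 fold change -2.61 ± 0.28, adjusted p = 0.000783), with both term libraries below all 8 earlier ones. *TFPI*, tissue factor pathway inhibitor, an endothelial brake on clotting, was a DEG at 91.1 and 128 CPM at day 120 and 11.2 and 6.82 CPM at term. This made a log2 fold change of -3.60 ± 0.36, adjusted p = 0.00059.

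**Figure D4:**
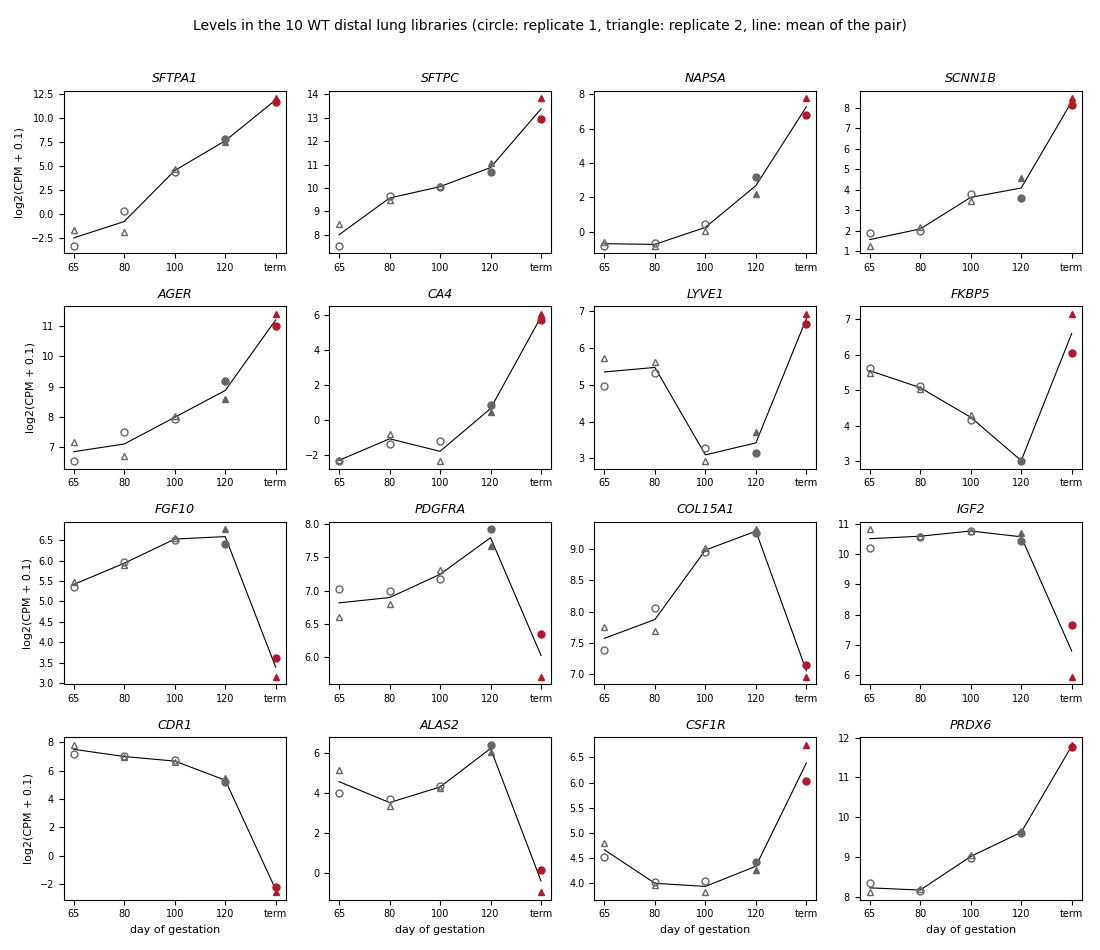
Levels of 16 genes on a log2(CPM + 0.1) scale in all 10 WT distal libraries from day 65 to term, with day 120 in filled grey, term in red, replicate 1 as circles and replicate 2 as triangles. Surfactant, sodium channel and capillary genes reach their highest level at term, *LYVE1* and *FKBP5* fall toward day 100 or day 120 and rise again, and *FGF10*, *PDGFRA* and *COL15A1* climb to day 120 and drop at term.

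Of 23 macrophage genes tested 16 rose and 1 fell. Their median was 2.32, and it was the same when genes without counts at day 120 were set to their bounds. *MARCO* (chromosome 2, 183240941 to 183279092, plus strand), the scavenger receptor of alveolar macrophages, had 0 counts in both day 120 libraries and 191 and 486 CPM at term. That is at least 7386-fold higher, with the bound taken from a floor of 3 counts over the 2 day 120 libraries. For term replicate 1 alone the bound was 4167-fold, and for term replicate 2 alone it was 10586-fold. *ADGRE1*, the F4/80 receptor, had 0 counts at day 120 and 43.8 and 80.97 CPM at term, at least 1360-fold higher by the same floor. *FABP4*, a lipid binding protein of alveolar macrophages and adipocytes, had 0 counts at day 120 and 3.28 and 49.02 CPM at term, at least 571-fold higher over both term libraries, at least 71.4-fold for term replicate 1 alone and at least 1067-fold for term replicate 2 alone. Counts from 1 to 20 were even in 72.4% to 77.5% of genes in the 4 libraries, as where both mates of a pair are counted. With a floor of 6 counts the bounds become 3693 for *MARCO*, 680 for *ADGRE1* and 285 for *FABP4*. *CD5L*, a macrophage-secreted scavenger protein, had 4 counts at day 120, all in replicate 1, and 8983 at term, a fold of 635. Its fitted log2 fold change ran from 7.88 to 14.07 with a library left out. It passed the quasi-likelihood test (adjusted p = 0.00287) but not DESeq2 (0.129). Macrophage genes were already present at day 120, however, with summed levels of 1234 and 1159 CPM and then 2106 and 3033 CPM at term. *CSF1R*, the receptor for colony stimulating factor 1, was a DEG at 21.2 and 18.97 CPM at day 120 and 65.01 and 108 CPM at term (log2 fold change 2.10 ± 0.24, adjusted p = 0.000973), and *MRC1*, the mannose receptor, was at 8.41 and 5.38 CPM at day 120 and 30.9 and 51.5 CPM at term (log2 fold change 2.59 ± 0.37, adjusted p = 0.00248). *PPARG*, a regulator of alveolar macrophage maturation that type 2 cells and lipofibroblasts also use, did not pass the test (log2 fold change 1.24 ± 0.51, adjusted p = 0.104).

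Neutrophil and monocyte genes rose in 11 of 21 and fell in 2, with a median log2 fold change of 2.09. Their summed level was 299 and 315 CPM at day 120 and 286 and 459 CPM at term. At day 65 it had been 813 and 924 CPM, while *S100A8* and *CSF3R* did not exceed 1.25 CPM. Other members of the list therefore carried the sum there. *CSF3R*, the receptor for granulocyte colony stimulating factor, was at 1.46 and 0.786 CPM at day 120 and 8.64 and 12.8 CPM at term (log2 fold change 3.26 ± 0.53, adjusted p = 0.00386). *S100A8* was at 6.25 and 2.998 CPM at day 120 and 17.4 and 77.4 CPM at term (log2 fold change 3.37 ± 1.05, adjusted p = 0.0453), and its partner *S100A9* at 8.81 and 3.42 CPM at day 120 and 13.7 and 61.04 CPM at term had a log2 fold change of 2.62 ± 0.84, adjusted p = 0.0501, just outside the limit. The call of *S100A8* was lost without term replicate 2 (adjusted p = 0.308), day 120 replicate 1 (0.141) or day 120 replicate 2 (0.195), with a replicate block (0.0749), with the day 100 libraries summed (0.0589) and with the length trend removed (0.0525). The risen members of this list were 7 with the day 100 libraries summed, 5 without term replicate 2 and 4 without either day 120 library.

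Lymphocyte genes stayed low. Of 28 genes of T and NK cells 7 rose, while 21 lay above all 8 earlier libraries. The summed level was 41.6 and 42.7 CPM at day 120 and 81.4 and 119 CPM at term. *CD8A*, the coreceptor of cytotoxic T cells, was at 0.975 and 0.688 CPM at day 120 and 4.48 and 6.695 CPM at term (log2 fold change 2.76 ± 0.58, adjusted p = 0.0107), and its call was lost without day 120 replicate 1 (adjusted p = 0.0588) or replicate 2 (0.0759). *CD3E*, a chain of the T cell receptor complex, was at 3.17 and 4.06 CPM at day 120 and 7.499 and 12.4 CPM at term and did not pass the test (log2 fold change 1.46 ± 0.49, adjusted p = 0.0574). *IL7R*, the interleukin 7 receptor of resting lymphocytes, was at 1.62 and 1.52 CPM at day 120 and 6.74 and 15.1 CPM at term (log2 fold change 2.80 ± 0.47, adjusted p = 0.00434). The risen members were 4 without term replicate 2, 4 without day 120 replicate 1 and 3 without day 120 replicate 2.

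Of 19 B cell genes 3 rose and 2 fell, shares not far from those of all genes (13.5% and 12.3%). The fall of 1 of them, *TNFRSF13C*, was lost without term replicate 1 (adjusted p = 0.0798), day 120 replicate 1 (0.0604) or replicate 2 (0.134), after thinning (0.0673) and with the 4 libraries alone (0.153). *CR2*, complement receptor 2, was at 0.244 and 0.0492 CPM at day 120 and 40.96 and 64.7 CPM at term and was a DEG on 8 counts at day 120 against 12212 at term. *CD79A*, a chain of the B cell receptor, was at 0.6497 and 0.541 CPM at day 120 and 3.697 and 7.08 CPM at term (log2 fold change 3.18 ± 0.50, adjusted p = 0.00354), whereas *MS4A1* (CD20) at 0.406 and 0.0983 CPM at day 120 and 0.356 and 0.345 CPM at term and *JCHAIN*, the joining chain of secreted IgA and IgM, at 5.52 and 7.201 CPM at day 120 and 5.12 and 7.53 CPM at term did not pass the test. *CD22*, a sialic acid receptor of B cells, fell from 65.1 and 26.0 CPM to 9.98 and 5.13 CPM (log2 fold change -2.59 ± 0.42, adjusted p = 0.00401). It had been at 56.8 to 87.1 CPM from day 65 to day 100. Before birth *CD22* thus stood far above *CD79A* (at most 1.43 CPM) and *MS4A1* (at most 0.406 CPM). At term *CR2* stood far above both. Which cells made *CD22* and *CR2* was not tested. Dendritic cell and antigen presentation genes rose in 13 of 21, with a median of 1.24. *CD74*, the invariant chain of MHC class II, was at 114 and 92.5 CPM at day 120 and 222 and 399 CPM at term (log2 fold change 1.59 ± 0.48, adjusted p = 0.0387), and *CIITA*, the class II transactivator, at 3.33 and 2.61 CPM at day 120 and 6.51 and 8.02 CPM at term (log2 fold change 1.29 ± 0.33, adjusted p = 0.0206). Both calls were lost without term replicate 2 (adjusted p = 0.193 and 0.106), day 120 replicate 1 (0.14 and 0.0715) and day 120 replicate 2 (0.171 and 0.116). That of *CD74* was also lost with the length trend removed (0.054) and with the day 100 libraries summed (0.0698), and that of *CIITA* with the 4 libraries alone (0.0824). The risen members of the list were 6, 3 and 4 without those libraries. *KIT*, the stem cell factor receptor of mast cells and progenitors, fell from 49.9 and 44.5 CPM to 13.8 and 7.56 CPM (log2 fold change -2.14 ± 0.25, adjusted p = 0.00113), the single called gene among 6 mast cell genes.

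Of 25 complement genes 18 rose and 1 fell, with a median of 1.94. *CFP*, properdin, the stabiliser of the alternative pathway convertase, was at 1.62 and 1.06 CPM at day 120 and 37.1 and 70.4 CPM at term. It thus had a log2 fold change of 5.35 ± 0.64, adjusted p = 0.00122. *C7*, a component of the membrane attack complex, was a DEG at 5.64 and 5.28 CPM at day 120 and 39.95 and 87.7 CPM at term (log2 fold change 3.55 ± 0.39, adjusted p = 0.000843). *C3*, the central component, was at 87.6 and 133 CPM at day 120 and 312 and 838 CPM at term (log2 fold change 2.38 ± 0.42, adjusted p = 0.0051). The risen complement genes were 10 without day 120 replicate 1. Of 35 genes induced by interferon 14 rose and 1 fell, with a median of 0.74, and 23 lay above all 8 earlier libraries. *IFI35* was a DEG at 18.3 and 16.9 CPM at day 120 and 50.7 and 72.9 CPM at term (log2 fold change 1.81 ± 0.20, adjusted p = 0.000973). The antiviral genes *ISG15* (log2 fold change 1.51 ± 0.51, adjusted p = 0.0598) and *MX1* (log2 fold change 1.00 ± 0.36, adjusted p = 0.0706) and the chemokine *CXCL10* (log2 fold change 0.19 ± 0.46, adjusted p = 0.792) did not pass the test. Without day 120 replicate 2 the risen interferon genes were 5.

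Cytokine and chemokine genes rose in 11 of 29 and fell in 1. *CXCL16*, a membrane chemokine of macrophages and epithelium, was a DEG at 9.38 and 8.995 CPM at day 120 and 44.9 and 63.4 CPM at term. The fit gave a log2 fold change of 2.56 ± 0.24, adjusted p = 0.00049. *IL1RN*, the interleukin 1 receptor antagonist, was at 1.62 and 1.52 CPM at day 120 and 13.5 and 30.8 CPM at term (log2 fold change 3.82 ± 0.69, adjusted p = 0.00588), with its call lost without day 120 replicate 1 (adjusted p = 0.0512). *CXCL8*, the neutrophil chemokine, was at 2.84 and 0.762 CPM at day 120 and 2.38 and 13.1 CPM at term and did not pass the test (log2 fold change 2.12 ± 0.87, adjusted p = 0.104). Pattern recognition and airway defence genes rose in 13 of 29 and fell in 1, and several stood much higher in term replicate 2, the library with the higher airway sums. *DMBT1*, a mucosal scavenger receptor, was at 0.934 and 7.94 CPM at day 120 and 172 and 1122 CPM at term (log2 fold change 7.12 ± 1.11, adjusted p = 0.00335). *LTF*, lactoferrin, was at 3.21 and 3.05 CPM at day 120 and 20.5 and 213 CPM at term (log2 fold change 5.22 ± 0.93, adjusted p = 0.00558), and its call was lost without day 120 replicate 1 (adjusted p = 0.0518). *LYZ*, lysozyme, was at 1.87 and 1.303 CPM at day 120 and 15.9 and 41.3 CPM at term (log2 fold change 4.18 ± 0.66, adjusted p = 0.00351). Without term replicate 2 the risen members were 4 cytokine and 6 defence genes, without day 120 replicate 1 they were 5 and 3, and without day 120 replicate 2 they were 4 and 4. *CD163* and *GZMA* are not analysed here.

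Of 22 oncofetal and growth genes 11 fell and 2 rose, with a median of -1.34. *IGF2*, the fetal insulin-like growth factor, was at 1383 and 1684 CPM at day 120 and 201 and 61.1 CPM at term (log2 fold change -3.55 ± 0.49, adjusted p = 0.00223) after 1174 to 1817 CPM from day 65 to day 100. *IGF2BP1*, an RNA-binding protein of fetal tissues, was at 9.38 and 6.71 CPM at day 120 and 2.09 and 2.502 CPM at term (log2 fold change -1.80 ± 0.31, adjusted p = 0.00507). Among 45 morphogens and patterning factors 20 fell and 2 rose, with 22 below all 8 earlier libraries. *SFRP2*, a secreted inhibitor of Wnt signalling, was a DEG at 23.2 and 27.7 CPM at day 120 and 1.24 and 1.35 CPM at term. This made a log2 fold change of -4.29 ± 0.24, adjusted p = 5.40e-05. *PTCH1*, the Hedgehog receptor, was at 66.9 and 71.8 CPM at day 120 and 42.2 and 34.9 CPM at term (log2 fold change -0.85 ± 0.14, adjusted p = 0.00398), and *SOX11*, a progenitor transcription factor, at 10.4 and 11.7 CPM at day 120 and 3.38 and 2.88 CPM at term (log2 fold change -1.82 ± 0.25, adjusted p = 0.00209). *SOX9*, a marker of distal tip progenitors, was at 5.604 and 10.9 CPM at day 120 and 8.75 and 14.5 CPM at term and did not pass the test, nor did *BMP4* (log2 fold change -0.15 ± 0.11, adjusted p = 0.362). Without day 120 replicate 1 the fallen members were 7 oncofetal genes and 13 morphogens, where 4.26% of all genes fell.

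Cell cycle genes did not move together, with 4 of 70 higher and 2 lower and a median of 0.02. *MKI67* was at 61.6 and 43.7 CPM at day 120 and 60.7 and 20 CPM at term (log2 fold change -0.38 ± 0.41, adjusted p = 0.524) and *TOP2A* at 98.8 and 85.2 CPM at day 120 and 91.7 and 32.6 CPM at term (log2 fold change -0.57 ± 0.37, adjusted p = 0.286), and neither passed the test. For both genes term replicate 1 lay near the day 120 libraries and term replicate 2 lay below them. Without term replicate 1, 30 members fell; without term replicate 2, 9 rose.

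Genes known to respond to glucocorticoids rose in 12 of 17 and fell in 1. *FKBP5*, a cochaperone of the glucocorticoid receptor, was a DEG at 7.88 and 8.11 CPM at day 120 and 65.6 and 142 CPM at term (log2 fold change 3.70 ± 0.33, adjusted p = 0.000385), after a decline from 49.4 CPM at day 65. *KLF9*, a direct receptor target, was a DEG at 43.1 and 45.5 CPM at day 120 and 242 and 151 CPM at term (log2 fold change 2.15 ± 0.21, adjusted p = 0.000501). *TSC22D3* (GILZ) was at 144 and 149 CPM at day 120 and 256 and 347 CPM at term (log2 fold change 1.04 ± 0.15, adjusted p = 0.00256). The receptor gene *NR3C1* fell from 135 and 102 CPM to 65.3 and 26.3 CPM (log2 fold change -1.37 ± 0.39, adjusted p = 0.0321), but the call was lost without term replicate 2 (adjusted p = 0.0615), day 120 replicate 1 (0.156), day 120 replicate 2 (0.0627), with the day 100 libraries summed (0.0544) and with the 4 libraries alone (0.0929).

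Antioxidant and oxidase genes rose in 21 of 27, with a median of 0.97. *PRDX6*, a peroxiredoxin with phospholipase activity in the alveolus, was a DEG at 775 and 803 CPM at day 120 and 3464 and 3627 CPM at term (log2 fold change 2.17 ± 0.14, adjusted p = 0.000125). *SRXN1*, sulfiredoxin, was a DEG at 8.28 and 6.49 CPM at day 120 and 29.2 and 44.2 CPM at term. It thus had a log2 fold change of 2.32 ± 0.23, adjusted p = 0.000591. *CYBB*, the phagocyte oxidase, was at 13.8 and 10.6 CPM at day 120 and 44.99 and 65.6 CPM at term (log2 fold change 2.18 ± 0.29, adjusted p = 0.0018). The risen members were 9 without day 120 replicate 1 and 12 without replicate 2, where 4.38% and 5.87% of all genes rose. Hypoxia-inducible genes showed no common direction, with 7 of 30 higher and 7 lower; *ADM*, adrenomedullin, was a DEG at 37.8 and 36.4 CPM at day 120 and 244 and 186 CPM at term (log2 fold change 2.54 ± 0.20, adjusted p = 0.00026). Immediate early and heat shock genes, which also respond to handling of tissue, rose in 11 of 31. *JUNB* was a DEG at 15.3 and 16.96 CPM at day 120 and 65.8 and 57.7 CPM at term (log2 fold change 1.93 ± 0.18, adjusted p = 0.00045) and *ATF3* was at 3.78 and 5.04 CPM at day 120 and 41.5 and 22.6 CPM at term (log2 fold change 2.86 ± 0.40, adjusted p = 0.00232). The risen members of that list were 5 without either day 120 library.

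Of 21 erythroid genes 13 fell and 2 rose, with a median of -3.43. *ALAS2*, the first enzyme of haem synthesis in erythroid cells, was a DEG at 85.4 and 65.6 CPM at day 120 and 1.02 and 0.414 CPM at term (log2 fold change -6.71 ± 0.54, adjusted p = 0.00026), and *HBM*, a minor globin, was a DEG at 8.77 and 6.34 CPM at day 120 and 0.156 and 0.1898 CPM at term. The fit gave a log2 fold change of -5.43 ± 0.48, adjusted p = 0.000387. *SLC4A1*, the band 3 anion exchanger, was at 14.5 and 2.95 CPM at day 120 and 0.122 and 0.0518 CPM at term (log2 fold change -6.61 ± 0.91, adjusted p = 0.00218). Without term replicate 2 the fallen members were 8 and without day 120 replicate 1 they were 7. The list's summed level was 287 and 222 CPM at day 120 and 187 and 151 CPM at term. Of 9 platelet genes, which also mark blood, none was called by edgeR, 2 had an unadjusted p under 0.05 and DESeq2 called 1. Their summed levels were 33.2 and 25.8 CPM and then 32.5 and 37.2 CPM. The part of blood in the erythroid result was not tested. Of 12 hepatocyte genes 4 rose, of 12 genes of heart and skeletal muscle 1 rose and 1 fell, and of 7 genes of thymus and lymph node stroma 1 rose, *CCL21*, with the losses given above.

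Other DEGs among those of largest change were outside these lists. *PDK4*, the kinase that holds back pyruvate oxidation, was at 7.07 and 5.14 CPM at day 120 and 109.5 and 140.0 CPM at term (log2 fold change 4.36 ± 0.27, adjusted p = 7.21e-05). *UCP3*, a mitochondrial carrier linked to fatty acid use, was at 0.487 and 0.909 CPM at day 120 and 67.3 and 44.3 CPM at term (log2 fold change 6.27 ± 0.62, adjusted p = 0.000914), and *SDS*, serine dehydratase, was at 1.46 and 1.28 CPM at day 120 and 61.8 and 75.8 CPM at term (log2 fold change 5.66 ± 0.33, adjusted p = 6.80e-05). Each lay above all 8 earlier libraries. *NPTX2*, a neuronal pentraxin, was at 1.22 and 3.59 CPM at day 120 and 74.9 and 104 CPM at term. This made a log2 fold change of 5.17 ± 0.49, adjusted p = 0.00049. *CDR1* (chromosome X, 89397004 to 89399137, plus strand), cerebellar degeneration-related protein 1, had the largest fall of the DEGs that the naming rule reached, from 35.9 and 44.8 CPM to 0.122 and 0.069 CPM (log2 fold change -8.69 ± 0.34, adjusted p = 1.53e-05). It had been at 97.2 to 227 CPM from day 65 to day 100. *LAMA1*, a laminin chain of embryonic basement membranes, was at 14.9 and 14.4 CPM at day 120 and 1.14 and 0.483 CPM at term (log2 fold change -4.17 ± 0.37, adjusted p = 0.000402), and *NRCAM*, a neuronal adhesion molecule, at 37.4 and 53.04 CPM at day 120 and 3.28 and 2.85 CPM at term (log2 fold change -3.88 ± 0.28, adjusted p = 0.000181). *LECT1*, chondromodulin, an inhibitor of vessel growth in cartilage, was at 13.2 and 24.6 CPM at day 120 and 1.13 and 1.56 CPM at term (log2 fold change -3.81 ± 0.35, adjusted p = 0.000426).

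The same interval was also fitted in proximal lung of the same WT animals. There 4476 genes were called (24.6%). Of the higher distal DEGs, 113 were also called higher in proximal lung and 1 was called lower, and of the lower DEGs 95 were called lower. The difference between the distal and the proximal change was tested in a fit of 20 WT libraries with animal as a block, and 6 of 18715 genes passed (0.0321%). In 5 (0.0267%) the distal value was higher and in 1 (0.00534%) it was lower, while 892 genes had an unadjusted p under 0.05. *PRG4*, lubricin, rose in distal lung from 0.893 and 0.737 CPM to 10.5 and 19.2 CPM (log2 fold change 4.19 ± 0.46, adjusted p = 0.000905) and fell in proximal lung (log2 fold change -2.20), a difference of 6.34 (adjusted p = 0.0054). *SFRP4*, a secreted Wnt antagonist, differed by 3.62 (adjusted p = 0.0066), and *HOXA7*, a positional homeobox gene, by -2.57 (adjusted p = 0.0021). *DLK1*, a Notch ligand of progenitors, fell in both regions, with log2 fold changes of -1.82 in distal and -3.79 in proximal lung (adjusted p of the difference = 0.0297). The mesothelial gene *LRRN4*, below the expression limit of the naming rule and named after its values were seen, had 2 counts at day 120 and 531 at term in distal lung and also passed (adjusted p = 0.0066). The remaining gene, *LOC101123672*, is a gene of complement component C4 by the name used in the study. It was likewise named afterwards, and its distal value was the higher by 1.97 (adjusted p = 0.0233). Without distal term replicate 2 all 5 genes with the higher distal value were lost, *PRG4*, *SFRP4* and *LRRN4* each at an adjusted p of 0.0563, *DLK1* at 0.0764 and *LOC101123672* at 0.238, and *HOXA7* alone passed. The call of *DLK1* was also lost without distal day 120 replicate 1 (adjusted p = 0.117), and those of *LRRN4* (1) and *LOC101123672* (0.0892) without distal day 120 replicate 2. Without the animal block *PRG4* alone passed, *HOXA7* being at an adjusted p of 0.94 and the other four at 0.933.

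**Figure D5:**
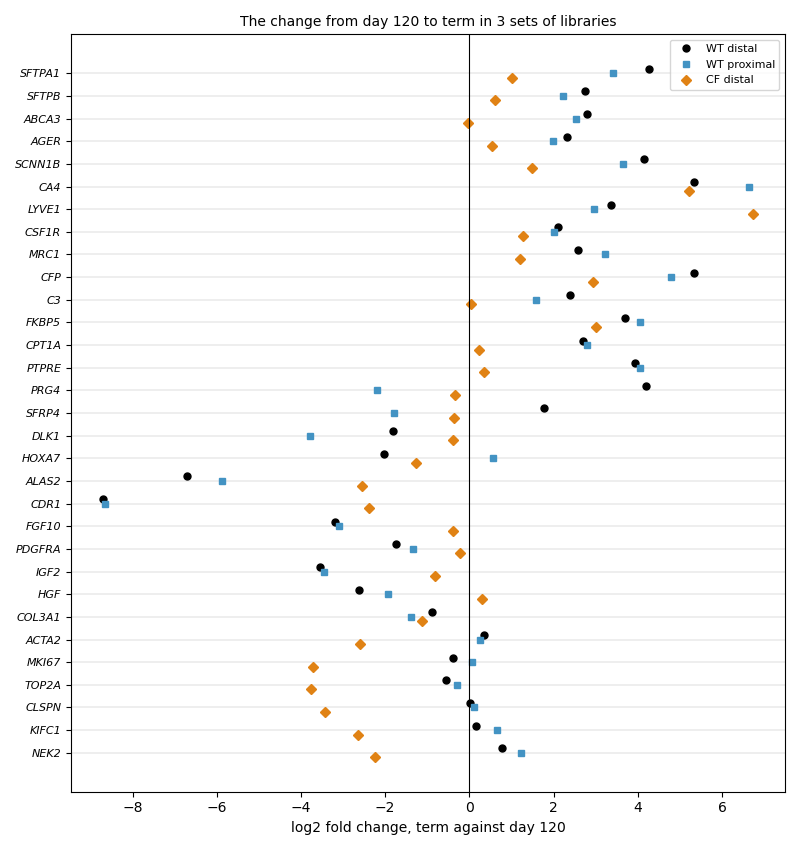
Log2 fold change from day 120 to term for 31 genes in WT distal (black circles), WT proximal (blue squares) and CF distal lung (orange diamonds), from separate fits and drawn without errors. WT distal and WT proximal values lie close together except for *PRG4*, *SFRP4*, *DLK1* and *HOXA7*, and CF distal values lie apart from WT distal values for *CDR1*, *FGF10*, *PTPRE* and the cell cycle genes.

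In CF distal lung 4495 genes were called between day 120 and term (23.0%). Of the 114 higher WT DEGs 70 were called higher and 1 was called lower in CF distal lung, and of the 96 lower DEGs 51 were called lower and 5 higher. The difference between the WT and the CF change was tested in a fit of all 20 distal libraries, and 1869 of 20084 genes passed (9.31%). The WT value was the higher in 1024 (5.1%) and the lower in 845 (4.21%). *CPT1A*, the enzyme that admits fatty acids to mitochondria, rose in WT from 32.7 and 32.8 CPM to 218 and 209 CPM (log2 fold change 2.70 ± 0.12, adjusted p = 2.23e-05), against a log2 fold change of 0.22 in CF (adjusted p of the difference = 6.1e-05). *PTPRE*, a receptor tyrosine phosphatase, rose in WT by 3.94 on the log2 scale and had a value of 0.34 in CF (adjusted p of the difference = 0.00033). *CDR1* fell in both, with log2 fold changes of -8.69 and -2.38 (adjusted p of the difference = 0.00033). The difference passed for 4 of 19 type 2, 3 of 23 type 1 and 6 of 22 liquid transport genes, each with the higher value in WT. Among the alveolar genes described it passed for *SFTPA1* (3.25, adjusted p = 0.029), *SFTPB* (2.13, 0.022), *NAPSA* (3.20, 0.018), *ABCA3* (2.83, 0.01), *SCNN1B* (2.66, 0.0024) and *ANO1* (1.39, 0.0093). It did not pass for *SFTPC* (0.62, adjusted p = 0.72), *SFTPD* (0.88, 0.33), *LAMP3* (0.06, 0.95), *AGER* (1.79, 0.084), *AQP5* (0.69, 0.43), *HOPX* (-0.66, 0.27), *SCNN1A* (1.21, 0.22) or *SCNN1G* (2.34, 0.079). Without 1 of the WT libraries 1 to 4 type 2, 0 to 2 type 1 and 3 to 5 liquid transport genes passed. *FGF10* differed by -2.81 (adjusted p = 0.0045) and *PDGFRA* by -1.54 (0.0098).

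The test of the difference passed for 50 of 70 cell cycle genes, each with the higher value in WT. Leaving out 1 WT library gave 38 to 55. Hypoxia-inducible genes and smooth muscle genes had the same next highest share, 50.0%. Of the hypoxia-inducible genes 13 of 30 were lower and 2 higher in WT, and leaving out any 1 WT library reduced the number that were lower. In CF 18 hypoxia-inducible genes rose. Of the cell cycle genes 4 rose and 2 fell in WT, but 30 fell without term replicate 1. In CF 1 cell cycle gene rose and 58 fell. *TOP2A* had log2 fold changes of -0.57 in WT and -3.76 in CF (adjusted p of the difference = 0.0015), while *CLSPN*, *KIFC1* and *NEK2*, genes of replication checkpoints, spindles and centrosomes, differed by 3.44, 2.79 and 3.01 (adjusted p = 0.00033 for each). Of the smooth muscle genes, 8 of 18 had a higher and 1 had a lower value in WT. *ACTA2* and *MYH11* differed by 2.94 and 2.37 (adjusted p = 0.0019 and 0.0015) and *PLN* by -2.32 (adjusted p = 0.002). WT and CF animals also differed in how they were made and in the depth of their day 120 libraries. Genotype and cloning cannot be told apart in this comparison. The study gives male fibroblasts as the source of the CF animals and natural birth for the WT term lambs. It does not state how the CF term lambs were delivered. Sex, delivery and time after birth were not tested. After all libraries were thinned to equal depth 1936 of 18164 genes passed, and 49 of the 70 cell cycle genes.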

How the data were processed

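RNA from snap-frozen distal lung was sequenced as paired reads. The authors aligned reads to Oar_v4.0 with STAR (2.6 in the submitters' processing notes, a later release in the study's methods) and counted them per gene with featureCounts 1.6.3. The deposited values are raw counts per gene, not normalised and not pooled. Annotation release, strand and handling of mates are not given in the sources used here. Genes that share reads with close copies or overlapping genes are uncertain.

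The analysis used edgeR 4.0.16 (glmQLFit, glmQLFTest) under R 4.3.3, after filterByExpr (count minimum 10, total 15) and TMM scaling of 10 WT distal libraries, with 1 mean per time point. The 2 WT day 100 libraries carry 1 animal label but entered as 2 libraries, which can make the estimated spread smaller than that between animals. Their replicate difference was the smallest of the WT distal time points (chi-square per degree of freedom 6.98, against 19.5 to 423, a measure that also grows with depth). Differences between regions (animal as block) and genotypes used 20 libraries each. Alternatives were RLE, DESeq2 1.42.0, glmTreat, other filters, thinning, removal of a length trend (lowess span 0.3), the 4 libraries alone, a replicate block, the WT day 100 libraries summed (added after seeing the data) and each library left out.

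The members and the 41 gene lists were chosen with earlier results of these data known. Named genes are a core set, the 12 DEGs of largest change in each direction, the 3 called members of largest change per list and the 6 genes of smallest p per difference, with average log2 CPM of at least 1 and no overlap between groups; not all 203 are described. CF proximal libraries, day 50, enrichment tools and RT-qPCR were not used here.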

Additional observations from a re-analysis of the deposited data

Results flagged for a closer look

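The change from day 120 to term differed between distal and proximal WT lung for 6 genes, by a test of the difference itself with animal as a block. Among those reached by the naming rule the log2 differences, distal minus proximal, were 6.34 for *PRG4*, 3.62 for *SFRP4*, 1.97 for *DLK1* and -2.57 for *HOXA7*.

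The change differed between WT and CF distal lung for 1869 genes. The log2 differences, WT minus CF, of the 6 genes with the smallest p were -6.34 for *CDR1*, 3.59 for *PTPRE*, 3.44 for *CLSPN*, 3.01 for *NEK2*, 2.79 for *KIFC1* and 2.48 for *CPT1A*. For *CLSPN* the WT change itself was 0.01 ± 0.27 on the log2 scale and the CF change was -3.44, while for *CPT1A* the WT change was 2.70 ± 0.12 and the CF change 0.22. Groups of 2 libraries are too small for the outlier test used here, which needs 4.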

How the results depend on the processing

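The 210 DEGs became 193 with RLE, 195 with a count minimum of 50, 200 after thinning and 311 with the length trend removed, and these counts stayed within 1.5 times. They moved to 388 with no filter on low counts, 70 with glmTreat, 1881 at an adjusted p limit of 0.01, 2500 with DESeq2 and 0 with the 4 libraries alone, where 5359 genes had an unadjusted p under 0.05 and 1509 passed an adjusted p of 0.05. With the WT day 100 libraries of 1 animal label summed, an alternative chosen after seeing the data, 24 genes were DEGs. The fit then had 9 libraries, and the filter on low counts let 18975 genes through. Leaving out 1 library gave 10 to 1101 DEGs, 1640 to 6765 called genes, 1 to 264 genes for the difference between regions and 739 to 1604 for that between genotypes. The lone sample left at an age was then assumed to vary like the other groups. Without term replicate 1 there were 1101 DEGs and without term replicate 2 there were 116; without either day 120 library there were 10.

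Replicate numbers mark different animals in distal lung at every age but WT day 100, where both libraries carry 1 label, and deviations of same-numbered WT libraries correlated between -0.28 and 0.21, so the numbers are no pairing. A replicate block moved the DEGs to 131 and the called genes to 4950. It ended the calls of *S100A8* (adjusted p = 0.0749), *CD86* (0.0504) and *GATA1* (0.0547), and it moved the genotype difference from 1869 to 2658 genes. For the difference between regions, where a block stands for the animal, the fit without the replicate block called 1 gene.

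Of 163 called named genes 143 stayed called in every alternative that kept all 10 libraries or summed those of day 100, and 104 stayed called whichever of the 4 libraries was left out. The sign changed under an alternative for 13 named genes, none of them called in the reported fit. The alternative itself made a call for 1 of them, *CLSPN*, whose log2 fold change ran from -0.53 without term replicate 1 to 0.38 without term replicate 2. The cause of these moves was not tested. Errors here cover the spread between 2 libraries at an age, and the day 120 libraries were the shallower.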

Other observations

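Some genes outside the alveolar, stromal, vascular and immune lists moved with age in distal lung. *UCHL1*, a neuronal and neuroendocrine ubiquitin hydrolase, was at 13.8 and 16.4 CPM at day 120 and 5.47 and 6.54 CPM at term (log2 fold change -1.33 ± 0.17), the single called gene among 12 neuroendocrine and neuronal genes. *LGR5*, a receptor for R-spondins, was at 1.06 and 1.79 CPM and then at 13.5 and 9.04 CPM (2.97 ± 0.47), against the downward direction of most morphogen genes that were called. *CRABP1*, a retinoic acid binding protein listed with the oncofetal genes, was at 3.25 and 2.88 CPM and then at 10.7 and 21.1 CPM (2.38 ± 0.45). The cartilage collagen *COL9A3* was at 9.38 and 11.5 CPM and then at 1.07 and 1.10 CPM (-3.26 ± 0.34). Another type IX chain, *COL9A2*, rose from 0.406 and 0.983 CPM to 3.22 and 5.84 CPM, a call lost without day 120 replicate 1 (adjusted p = 0.0649) and with the 4 libraries alone (0.052). *CA9*, a hypoxia-inducible carbonic anhydrase, was at 1.14 and 1.01 CPM and then at 5.36 and 5.21 CPM (2.30 ± 0.41), and *HMOX1*, haem oxygenase, at 35.7 and 28.9 CPM and then at 72.8 and 117 CPM (1.55 ± 0.38), its call being lost without term replicate 2 (adjusted p = 0.0929), day 120 replicate 1 (0.0804) or day 120 replicate 2 (0.108).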
